A study of Homo sapiens with 16 samples.

Results

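The amino acid transporters described here are the genes of the solute carrier families SLC1A, SLC3A, SLC6A, SLC7A, SLC36A, SLC38A and SLC43A. They were taken from the array's gene names: every transcript cluster that names 1 gene only, with a symbol starting with one of these prefixes, and for a gene with several such clusters the one with the highest mean. A transcript cluster is the set of exon probes that the array design assigns to 1 locus. This gave 53 genes from 55 clusters, out of 14432 clusters with 1 symbol and 22011 in all. Of the 53 genes, 27 had a mean log2 expression of at least 7 over all arrays and are called expressed, and 26 were below it and are called dim. Of all 22011 clusters, 13950 had a mean of at least 7, and the medians of the arrays ran from 7.75 to 7.87. The line thus lies below a typical cluster. The word expressed is a label for brightness here and does not show that a gene is active in these cells. The lowest expressed members were SLC38A3 at 7.17 and SLC7A4 at 7.01, and the highest dim member was SLC6A20 at 6.91, so the line between the classes does not fall in a gap. A further 7 clusters name a transporter together with another gene and were left out, among them the clusters of SLC7A6 and SLC6A8.

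Amino acid transporters move amino acids across the plasma membrane or out of the lysosome. SLC1A5, SLC38A1 and SLC38A2 bring in neutral amino acids such as glutamine together with sodium, and heterodimers of the heavy chain SLC3A2 with a light chain exchange them: SLC7A5 takes in leucine and other large neutral amino acids, and SLC7A11 takes in cystine against glutamate. Several of these genes are known targets of ATF4, the transcription factor of the amino acid response, for which asparagine synthetase (ASNS) is a usual readout, while SLC36A1, SLC38A7 and SLC38A9 sit in the lysosome, where amino acids are sensed by mTORC1. The family SLC6A also holds carriers that are not for amino acids as nutrients, such as the dopamine transporter SLC6A3 and the taurine transporter SLC6A6.

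The study silenced genes that sensitized gastrointestinal stromal tumor (GIST) cells to imatinib and profiled GIST-T1, a human GIST line with a heterozygous activating KIT mutation grown in DMEM with serum, on exon arrays. Each of 14 arrays held cells transfected with siRNA against 1 gene at 50 nM: 10 zinc finger genes (ZNF91, ZNF43, ZNF708, ZNF85, ZNF665, ZNF100, ZNF528, ZNF254, ZNF431 and ZNF429) and 4 others (GTF2I, spelled GTF21 in the labels, IGF2R, IGFBP2 and RASSF8). The 2 control arrays held cells with a nonsilencing siRNA, siCON, labelled 24 h and 72 h. A figure legend of the paper gives a different time for the earlier one, and no source used here gives the harvest time of the knockdowns, so time and knockdown cannot be told apart. All arrays share the same cell line, each knockdown is 1 array, and nothing in the labels says that arrays came from separate cultures. The 14 different knockdowns therefore form the group, and p-values measure the spread between them, biology included.

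Levels are log2 values after RMA, on which a difference of 1 is a 2-fold change, and every difference below is a knockdown level minus the siCON mean unless said otherwise. Levels of different genes are not compared, since probes differ in brightness. Of the 14 silenced genes, 5 had a cluster of their own, and each of these was below both siCON arrays on its own array, with differences of −0.18 to −1.42, and lowest of all 16 arrays in 4 of 5. All 6 GIST markers measured were expressed (KIT at 13.28, CD34 at 13.33 and ANO1 at 12.93), against 2 of 7 epithelial, 1 of 5 blood and 0 of 5 endothelial markers. The SD over all clusters was smaller on 13 of 14 knockdown arrays than on both siCON arrays, lowest at 2.16 (IGF2R) and highest at 2.27 (ZNF429). With it, clusters with a mean under 7 were shifted upward by a median of 0.15, while those at or above 7 had a median difference of −0.00082. The part of this shift in the results below was not tested beyond the values given beside them.

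No member passed the threshold between the knockdowns and siCON. By limma with Benjamini-Hochberg adjustment over all clusters, 0 of 53 were called lower and 0 higher, in a table where 0.282% of clusters were called lower and 0.259% higher. At an unadjusted p under 0.05, limma gave 1 member (1.89%) lower and 10 (18.9%) higher, beside 6.93% and 7.77% of all clusters. The methods' t-test gave 0 after adjustment and 1 (1.89%) lower and 12 (22.6%) higher before it, beside 6.56% and 8.53% of all clusters. Counted by position, 10 of 53 members (18.9%) lay above both siCON arrays on all 14 knockdown arrays, where 4.81% of all clusters did, and 0 members lay below both on all 14, where 4.52% did. Of the 10, 7 were expressed, which is 25.9% of 27 members beside 4.85% of the clusters with a mean of at least 7. That mean includes the knockdown arrays. Of the 7, SLC38A5, SLC38A3 and SLC7A4 had siCON means of 6.94, 6.90 and 6.59. These passed the line of 7 only through their higher knockdown levels, so this share is no independent support. Among the 250 other solute carriers, 23 (9.2%) lay above both on all arrays. The count rests in part on scaling: with each array shifted to the same median it was 6 members, namely SLC38A7, SLC38A5, SLC38A12, SLC6A9, SLC7A4 and SLC1A3, beside 3.29% of clusters.

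**Figure D1:**
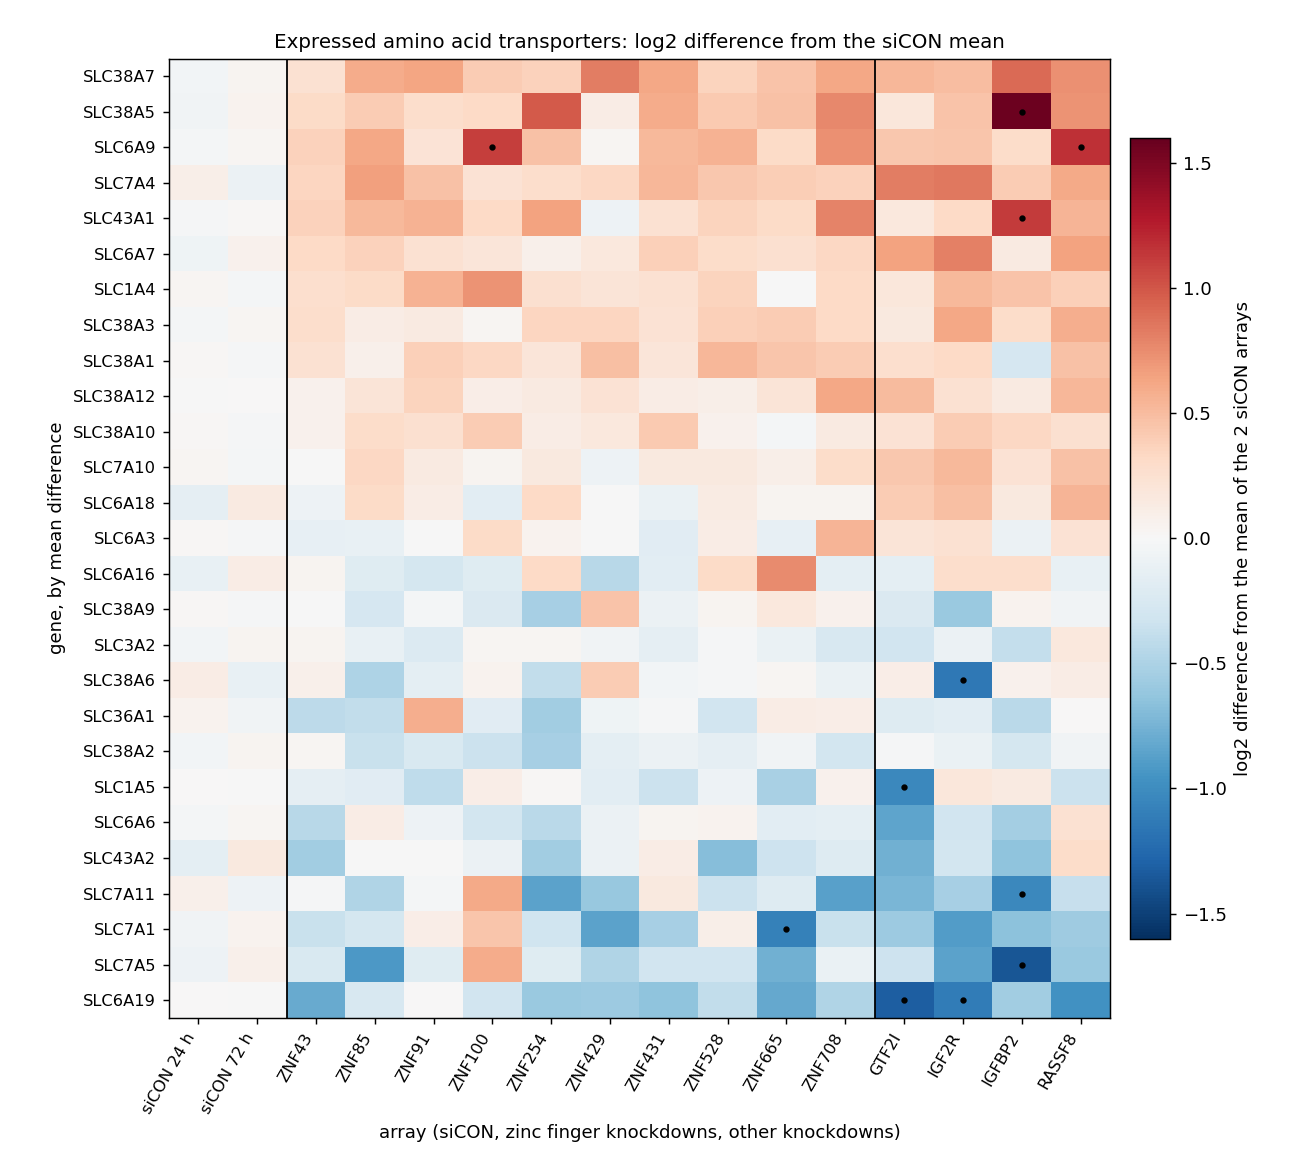
Log2 difference of the 27 expressed members (rows, by mean difference) from the siCON mean on each of the 16 arrays (columns). Red is above and blue below siCON, and black dots mark differences of 1 or more in either direction; SLC38A7 is red on all 14 knockdown arrays, and SLC7A1, SLC7A5 and SLC7A11 are blue on most but red on the ZNF100 array.

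Members of the SLC38 family, sodium-coupled carriers of neutral amino acids, made up 5 of the 10 members above siCON on all arrays. That is 45.5% of the 11 measured, beside 4.81% of all clusters. With each array shifted to the same median, only SLC38A7, SLC38A5 and SLC38A12 of the family remained. SLC38A7, which exports glutamine and asparagine from the lysosome, was 8.78 and 8.87 on the siCON arrays at 24 h and 72 h. On the knockdown arrays it ran from 9.07 (ZNF43) through a median of 9.39 to 9.73 (IGFBP2), so the groups did not overlap. Its mean difference was 0.56 (SE 0.139), with an adjusted p of 0.0907 in limma. In the exact two-sided permutation test over the 120 choices of 2 arrays as the reference, its p was 0.00833, the smallest the design allows, which SLC7A4 also reached among the 53 members tested. This p was not adjusted for the 53 members. Over all settings of the comparison with siCON, the lowest adjusted p of an expressed member was 0.0621, for SLC38A7.

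SLC38A5, a system N carrier of glutamine, histidine and asparagine, was 6.88 and 6.99 on the siCON arrays. It ran from 7.05 (ZNF429) through a median of 7.38 to 8.51 on the knockdown arrays, where the IGFBP2 array stood highest, 1.57 above the siCON mean, and the ZNF254 array next at 0.99. Its mean difference was 0.54 (SE 0.253), with a limma adjusted p of 0.335. The related system N carrier SLC38A3 was 6.87 and 6.93 with siCON and 6.94 to 7.51 with the knockdowns, with a median of 7.21 and a mean difference of 0.30. Its lowest knockdown array, ZNF100, lay only just above siCON, so the groups separate by little. SLC38A12, whose older name is TMEM104, was 9.54 and 9.55 with siCON and 9.61 to 10.17 with the knockdowns, with a median of 9.75, again with no overlap and a mean difference of 0.25. The fifth member of the family in this count was the dim SLC38A11, at 4.57 and 4.52 with siCON and 4.58 to 4.98 with the knockdowns.

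The system A carriers differed in direction. SLC38A1 was 12.02 and 11.96 with siCON and above both on 13 arrays, with a median of 12.32, and the exception was the IGFBP2 array at 11.72. SLC38A2, its neighbour on chromosome 12 and the carrier best known for its induction by amino acid starvation, was below both siCON arrays on 12 of 14 and above both on none. Their mean differences were 0.29 and −0.19, with limma adjusted p of 0.355 and 0.417. Of the remaining expressed SLC38 genes, SLC38A10 lay above both siCON arrays on 13 arrays with a mean difference of 0.22, and SLC38A9, the lysosomal arginine sensor of mTORC1, had a mean difference of −0.09 and lay on both sides. SLC38A6 had a mean difference of −0.11 and stood apart on 1 array: it was 7.02 on the IGF2R array, a difference of −1.14, and 7.67 or more on all others.

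In the SLC6 family, which holds sodium- and chloride-coupled carriers, the glycine transporter SLC6A9 and the neutral amino acid transporter SLC6A19 lay on opposite sides of siCON. SLC6A9 was 8.61 and 8.66 with siCON, and the knockdown arrays spanned 8.67 (ZNF429) through a median of 9.09 to 9.80 on the RASSF8 array, with 9.74 on the ZNF100 array. These 2 arrays were 1.16 and 1.10 above the siCON mean, and the lowest knockdown array exceeded the higher siCON array by less than the siCON arrays differed. The mean difference was 0.52 (SE 0.212), with a limma adjusted p of 0.285.

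SLC6A19, known as the main neutral amino acid transporter of intestine and kidney brush borders, was 11.38 and 11.37 with siCON. The knockdown arrays ran from 10.06 (GTF2I) through a median of 10.79 to 11.38 (ZNF91), and 13 of 14 were below both siCON arrays. Its mean difference was −0.63 (SE 0.237), the largest in size among the 53 members, and its limma adjusted p was 0.258. It was lowest on the GTF2I and IGF2R arrays, at −1.32 and −1.12, and the ZNF91 array was level with siCON. The upper quartile over all clusters was 9.30 and 9.26 on the GTF2I and IGF2R arrays, beside 9.41 and 9.40 on the siCON arrays. The part of this in the differences of SLC6A19 was not tested. Its chromosomal neighbour SLC6A18, a related kidney carrier, did not follow it: SLC6A18 had a mean difference of 0.16, and over the 14 knockdown arrays the correlation of the pair was −0.469, given as a description.

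The proline transporter SLC6A7 was 7.13 and 7.25 with siCON and 7.27 (ZNF254) or more with the knockdowns, above both siCON arrays on all 14. Its differences had a median of 0.31 and were highest on the IGF2R array, at 0.81, and on the GTF2I and RASSF8 arrays, which also had high dim clusters, and its mean difference was 0.35 (SE 0.154, limma adjusted p 0.317). The taurine transporter SLC6A6 had a mean difference of −0.21 and was lowest on the GTF2I array at −0.84. The dopamine transporter SLC6A3 and the orphan carrier SLC6A16 had mean differences of 0.08 and 0.02. For SLC6A16 the sign changed with the setting.

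Among the light chains that pair with SLC3A2, the leucine carrier SLC7A5 and the cystine carrier SLC7A11 lay below both siCON arrays on 13 and 10 of 14 arrays and above both on the ZNF100 array, and neither passed the threshold. SLC7A5 was 9.49 and 9.66 with siCON and ran from 8.20 (IGFBP2) through a median of 9.25 to 10.17 (ZNF100). The single array above siCON, ZNF100, exceeded the siCON mean by 0.59. Its mean difference was −0.44 (SE 0.305), with a limma adjusted p of 0.439.

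SLC7A11, the cystine carrier, was 9.54 and 9.37 with siCON and 8.42 (IGFBP2) to 10.06 (ZNF100) with the knockdowns, with a median of 9.03. It was above both siCON arrays on 2 arrays, and its mean difference was −0.38 (SE 0.297, limma adjusted p 0.477). SLC7A1, the cationic amino acid transporter for arginine and lysine, which needs no heavy chain, was also highest on the ZNF100 array. It was 9.65 and 9.75 with siCON and 8.62 (ZNF665) to 10.14 (ZNF100), with a median of 9.25, a mean difference of −0.42 (SE 0.277) and a limma adjusted p of 0.421. The heavy chain SLC3A2 itself spread less, from 10.56 (IGFBP2) to 11.10 (RASSF8) around siCON values of 10.89 and 10.98, with a mean difference of −0.10.

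SLC7A4, a relative of the cationic transporters, was 6.68 and 6.50 with siCON and 6.83 to 7.44 with the knockdowns, with a median of 7.01. It did not overlap between the groups, and its mean difference was 0.48 (SE 0.142), with a limma adjusted p of 0.170. Its levels lie at the line between expressed and dim, and its highest arrays, IGF2R and GTF2I, were 2 of the 3 on which dim clusters were shifted most. SLC7A10, another SLC3A2 partner that carries small neutral amino acids, lay on the other side from SLC7A5, with a mean difference of 0.21 and 12 arrays above both siCON arrays.

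**Figure D2:**
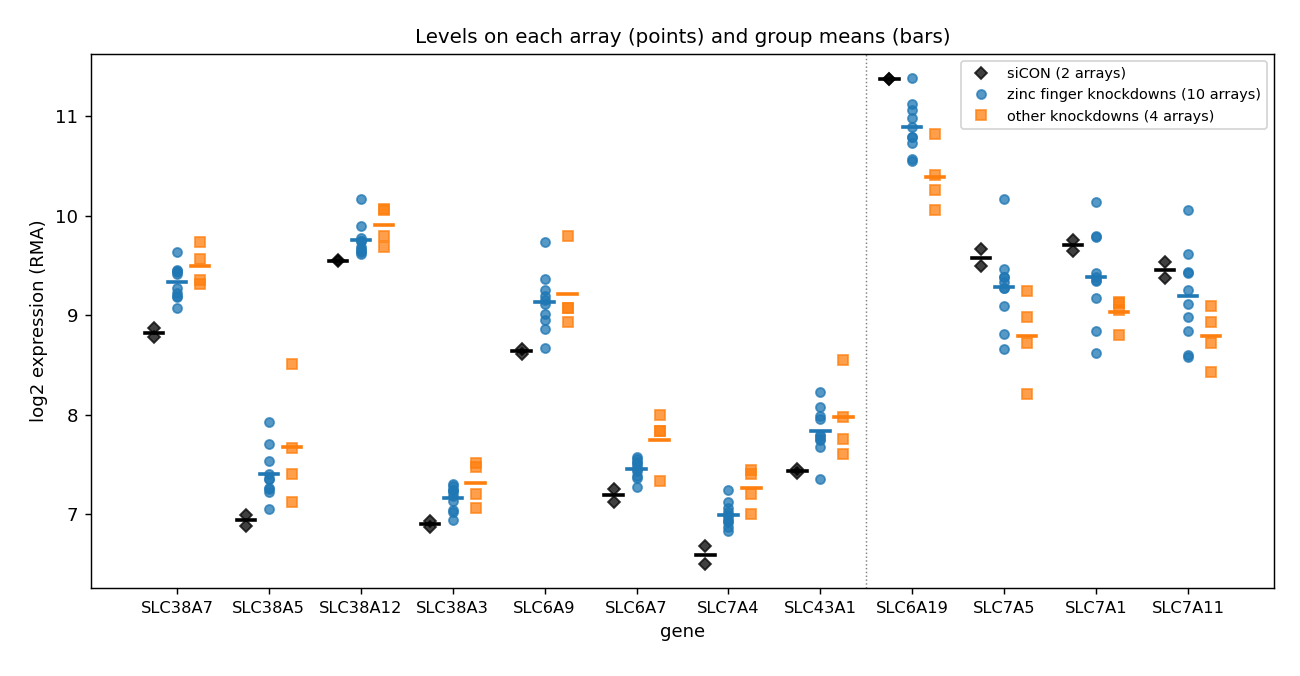
Log2 expression of 12 members on each array: siCON (black diamonds, 2 arrays), zinc finger knockdowns (blue circles, 10 arrays) and other knockdowns (orange squares, 4 arrays), with bars at the group means. Left of the dotted line are 8 members that lay above both siCON arrays on 13 or 14 knockdown arrays, and right of it 4 members that lay below both on 10 to 13.

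The facilitated carriers of large neutral amino acids split as well. SLC43A1 was 7.41 and 7.45 with siCON and 7.35 (ZNF429) to 8.55 (IGFBP2) with the knockdowns, with a median of 7.79. It was above both siCON arrays on 13 arrays, with a mean difference of 0.44 (SE 0.199, limma adjusted p 0.324). SLC43A2 had a mean difference of −0.27, but its siCON arrays differed by 0.30 between 24 h and 72 h, more than those of any other member, so the difference is no larger than the spread between the controls.

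In the SLC1 family, the neutral amino acid exchangers SLC1A4 and SLC1A5 also lay on opposite sides. SLC1A4 was 8.18 and 8.12 with siCON and 8.14 (ZNF665) to 8.87 (ZNF100), above both siCON arrays on 13 arrays, with a mean difference of 0.34 (SE 0.136, limma adjusted p 0.278). SLC1A5, the glutamine importer, was 11.69 and 11.67 with siCON and on both sides of it with the knockdowns, below both siCON arrays on 9 and above both on 5. Its mean difference was −0.19, and it was lowest on the GTF2I array, at 10.65, followed by the ZNF665 array, with a difference of −0.51. The gene has a second, dimmer cluster, on which the mean difference was 0.12 and the GTF2I array −0.25 rather than −1.03, so the clusters disagree and the value on the GTF2I array rests on 1 of them. The lysosomal proton-coupled carrier SLC36A1 had a mean difference of −0.14, with the ZNF91 array highest at 9.60.

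The 26 dim members moved with the dim part of the arrays. All 26 had a mean difference above 0, with a median of 0.19, where the 8061 clusters with a mean under 7 had a median of 0.15 and 76.0% of them lay above 0. By array, the median of the dim members ran from −0.03 (ZNF429) to 0.46 (IGF2R) and that of dim clusters from −0.01 to 0.33 on the same arrays. The 3 dim members above siCON on all arrays were SLC1A3, SLC36A4 and SLC38A11, and among dim members SLC36A4 also had the largest mean difference, 0.33. Next came SLC6A15 at 0.33 and SLC43A3 at 0.27. SLC6A15, a carrier of branched-chain amino acids and proline, was 6.02 and 6.04 with siCON and reached 7.07 on the ZNF91 array, a difference of 1.04.

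The expressed members were shifted less than the dim ones on most arrays, yet their median was above that of the clusters with a mean of at least 7 on all 14 arrays. It ran from −0.01 (ZNF429) to 0.25 (RASSF8), against −0.05 (IGF2R) to 0.03 (IGFBP2) for those clusters. Over the arrays together the expressed members had a median difference of 0.08, and 15 of 27 (55.6%) had a mean difference above 0. The 158 other solute carriers with a mean of at least 7 had a median of 0.12, with 67.7% above 0. The upward shift was thus not particular to the amino acid transporters. All 14 arrays were also set against the same 2 siCON arrays, so they are not independent of each other. The 12 members with a mean difference below 0 were all expressed.

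**Figure D3:**
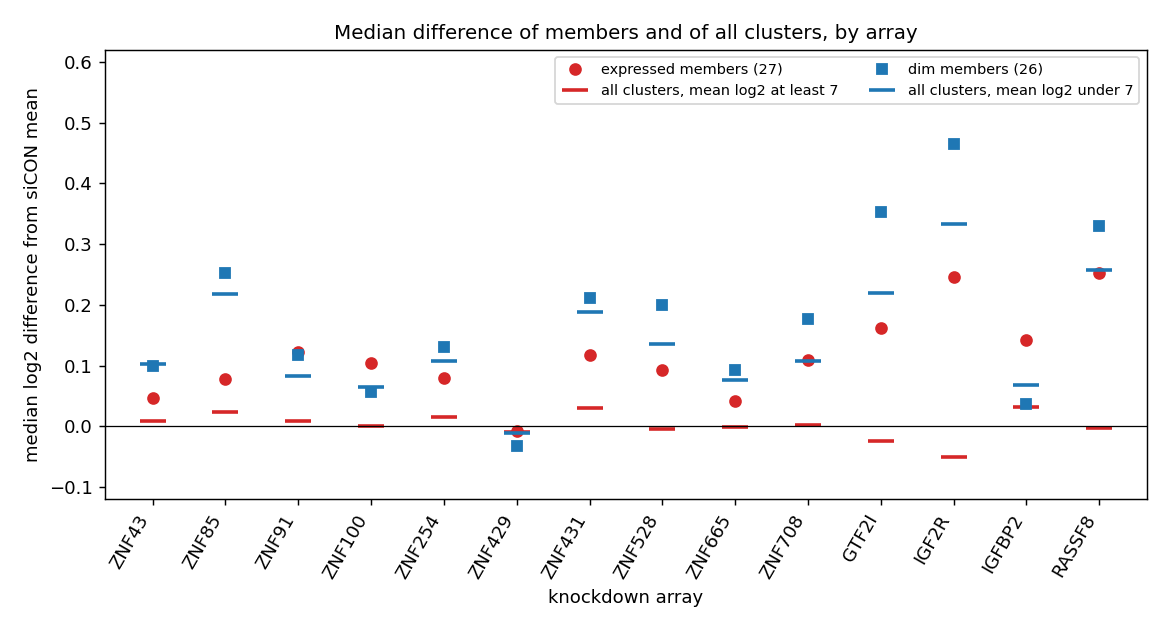
Median log2 difference from the siCON mean on each knockdown array, for the 27 expressed members (red circles), the 26 dim members (blue squares), and all clusters with a mean of at least 7 (red bars) or under 7 (blue bars). The red circles lie above the red bars on all 14 arrays, and the blue squares are highest on the IGF2R, GTF2I and RASSF8 arrays.

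Single arrays held few large differences. Over 742 pairs of a member and a knockdown, 7 (0.943%) were at −1 or lower, beside 1.49% of all clusters and arrays, and 5 (0.674%) at 1 or higher, beside 0.672%. With 1 array per knockdown these have no replicate check. The IGFBP2 array held 4 of the 12: SLC7A5 at −1.37 and SLC7A11 at −1.03, on an array with 1.71% of clusters at −1 or lower, and SLC38A5 at 1.57 and SLC43A1 at 1.12, where 1.04% were at 1 or higher. IGFBP2 encodes a secreted protein that binds insulin-like growth factors. The other low values were SLC1A5 and SLC6A19 on the GTF2I array, SLC6A19 and SLC38A6 on the IGF2R array and SLC7A1 at −1.08 on the ZNF665 array. The other high values were SLC6A9 on the ZNF100 and RASSF8 arrays and SLC6A15 on the ZNF91 array.

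The members most alike over the 14 knockdown arrays were sought among all 351 pairs of expressed members, and the values are descriptions without a test. SLC6A7 and SLC7A4 had a correlation of 0.888 and SLC43A1 and SLC38A5 of 0.858. The first pair shares high values on the GTF2I and IGF2R arrays, and the second shares its highest value on the IGFBP2 array, without which its correlation was 0.725. SLC7A10 with SLC6A18 (0.841) and with SLC7A4 (0.836) and SLC6A7 (0.803) came next, and all 4 genes of these pairs have levels near 7. The member most like ASNS was SLC6A9, with a correlation of 0.868, followed by SLC7A1 (0.643), SLC7A5 (0.558) and SLC1A4 (0.544).

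ASNS itself had a mean difference of −0.32 (limma adjusted p 0.402). It was below both siCON arrays on 12 arrays and above both on the ZNF100 array, at 0.39, and the RASSF8 array, at 0.07. SLC6A9 was highest on those same arrays, and SLC7A1, SLC7A5, SLC7A11 and SLC1A4 were all highest on the ZNF100 array. For 3 pairs of genes, SLC3A2 with each of 2 light chains and ASNS with SLC7A11, the correlation over the 14 knockdown arrays was tested. The permutation test used 100000 permutations. The heavy chain SLC3A2 had r = 0.363 (permutation p 0.201, adjusted 0.201) and rho = 0.213 (permutation p 0.468, adjusted 0.486) with SLC7A5. With SLC7A11 it had r = 0.438 (permutation p 0.116, adjusted 0.174) and rho = 0.393 (permutation p 0.167, adjusted 0.486). ASNS had r = 0.441 (permutation p 0.115, adjusted 0.174) and rho = 0.204 (permutation p 0.486, adjusted 0.486) with SLC7A11. None passed the threshold. Without the 2 arrays farthest from the median on the first gene, r was 0.216, 0.354 and −0.065, and within the zinc finger arrays alone it was 0.271, 0.239 and 0.434. Without the IGFBP2 and ZNF100 arrays, r was −0.165, 0.156 and −0.048, so the size of each rested on these arrays.

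**Figure D4:**
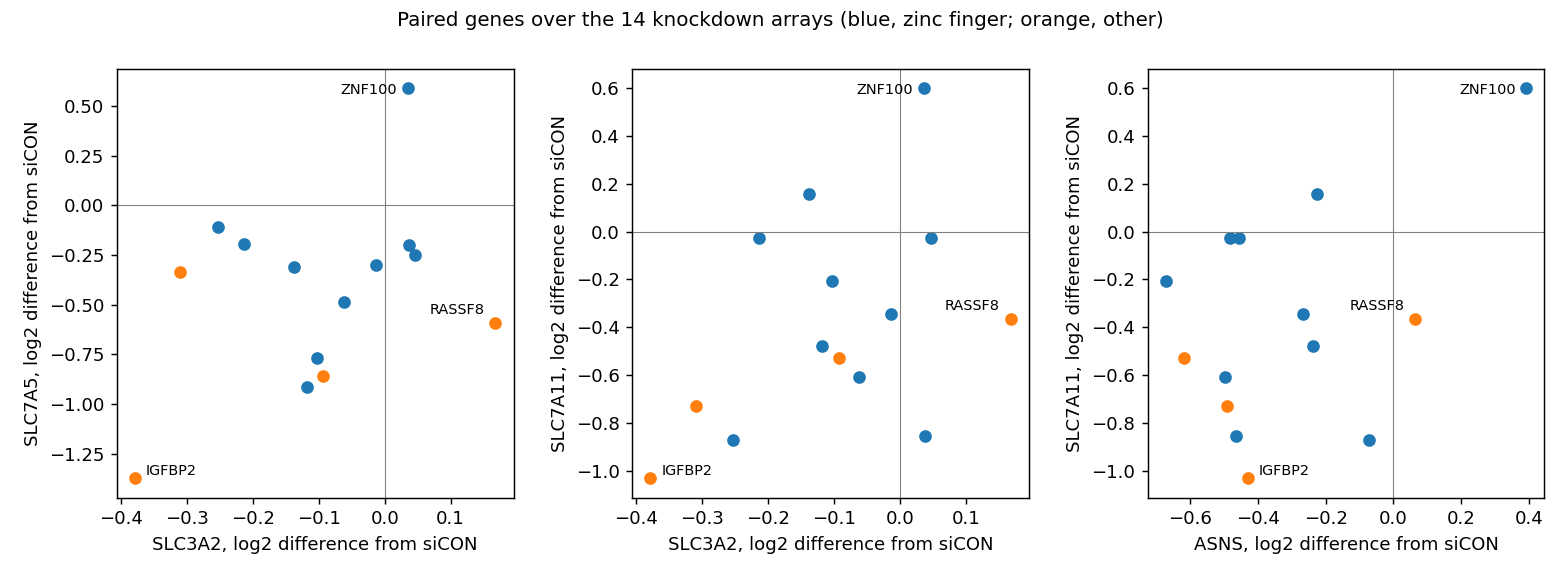
Log2 differences from the siCON mean of SLC3A2 against SLC7A5, SLC3A2 against SLC7A11 and ASNS against SLC7A11, with 1 point per knockdown array (blue, zinc finger; orange, other). The ZNF100 array is highest and the IGFBP2 array lowest on the vertical axis in all 3 panels.

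The 10 zinc finger knockdowns were then set against the 4 others, leaving siCON out. Limma called 0 members and 0.0% of clusters, so no member differed past the threshold. Unadjusted, 14 members (26.4%) were lower in the zinc finger knockdowns, beside 12.5% of clusters, and 3 (5.66%) higher, beside 5.73%. Of the 14, 10 were dim, which is 38.5% of the dim members, and 4 were expressed, 14.8% of the expressed ones. The highest difference was that of SLC6A19, at 10.89 ± 0.26 (SD, n = 10) against 10.39 ± 0.32 (SD, n = 4), a difference of 0.50 (SE 0.152) with overlapping arrays and a limma adjusted p of 0.233. SLC7A5 differed by as much, 0.50 (SE 0.220), with an adjusted p of 0.255 in limma.

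This count turned on the IGFBP2 array. Without it, limma called 15 members, 14 lower and 1 higher in the zinc finger knockdowns, in a table where 9.59% of clusters were lower and 2.68% higher. Of the 14, 10 were dim. The expressed ones were SLC6A7 at −0.43 (adjusted p 0.0209), SLC6A18 at −0.41 (0.0283), SLC7A4 at −0.35 (0.0309) and SLC7A10 at −0.35 (0.0293), and the 1 higher was SLC6A19 at 0.65 (0.0241). The 3 arrays that then remain in the other group, GTF2I, IGF2R and RASSF8, had median differences of dim clusters of 0.22, 0.33 and 0.26, while those of the zinc finger arrays ran from −0.01 to 0.22. On the GTF2I, IGF2R and RASSF8 arrays the upper quartile over all clusters was 9.30, 9.26 and 9.29, the lowest of all 16. On the zinc finger arrays it ran from 9.33 to 9.41. SLC6A19, a bright cluster, was lowest on the same 3 arrays. What these shifts contribute to the 14 lower calls and the 1 higher call was not tested.

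Genes around the transporters were read from 5 lists. Limma called none of them, and the counts of called genes were 0 of 36 measured in the amino acid response (ATF4, its kinases and its targets), 0 of 20 in lysosomal amino acid sensing, 0 of 11 in cystine and glutathione metabolism, 0 of 8 in glutamine and glutamate use, and 0 of 18 among other amino acid carriers. Unadjusted, limma gave 2 lower and 2 higher, 1 and 4, 2 and 0, 1 and 0, and 1 and 4 in that order, beside 6.93% lower and 7.77% higher among all clusters. The median difference was −0.09 in the amino acid response, 0.0030 in lysosomal sensing, −0.14 in the cystine list, −0.17 in the glutamine list and 0.15 among the other carriers, beside 0.07 over all clusters. By size, EIF2S1, the translation initiation factor that the response phosphorylates, had a mean difference of −0.44 and EIF2AK3, one of its kinases, of 0.40. ATF4 itself had a mean difference of 0.30 (limma adjusted p 0.295), opposite in sign to ASNS, and lay above both siCON arrays on all 14. In the lysosomal list, RRAGD, one of the Rag GTPases that bring mTORC1 to the lysosome, had −0.42, with the ZNF254 array lowest and the ZNF429 array highest at 0.67, and TFEB, a transcription factor of lysosomal genes, had 0.39. GPX4, the peroxidase that uses glutathione against lipid peroxides, had −0.42 and lay below both siCON arrays on all 14, as did TXNRD1, thioredoxin reductase, at −0.34. The transaminase GOT1 had −0.50 and PPAT, the glutamine amidotransferase of purine synthesis, −0.42. SLC25A22, the mitochondrial glutamate carrier, had 0.50 and lay above both siCON arrays on all 14 (limma adjusted p 0.109), and the vesicular glutamate transporter SLC17A7 had 0.42. In the order of the lists, 2, 0, 2, 1 and 0 genes lay below both siCON arrays on all 14, beside 4.52% of all clusters. Above both on all 14 were 1, 2, 0, 0 and 4, beside 4.81%.

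The promoter windows of the members were searched for short motifs, in RefSeq sequence of build GRCh38.p14 from 250 bases before to 50 after each start. For 40 of the 53 members there were 62 windows. TGATGNAA, the core of the amino acid response element that ATF4 binds, was found on either strand in 6 of 62 (9.68%), in SLC1A3, SLC1A4, SLC1A5, SLC3A2, SLC7A1 and SLC38A1, and in 3.62% of all 35116 windows. CACGTG, an E-box that reads the same on both strands and is not contained in the first motif, was added after the values had been seen. It was found in 10 of 62 (16.1%), SLC7A5 and SLC38A7 among them, and in 7.26% of all. Only SLC1A5 held both motifs. A match is a description and no evidence of binding. Of the 6 members with the first motif, only SLC7A1 and SLC1A4 were highest on the ZNF100 array. SLC38A1 was highest on the ZNF528 array, SLC3A2 on the RASSF8 array, and SLC1A5 and SLC1A3 on the IGF2R array. SLC7A5 and SLC7A11, also highest on the ZNF100 array, were not among the 6. These 3 windows with the first motif are printed because their genes were highest on the same array, ZNF100, with the match in capitals: SLC7A1 (chr13:29595639-29595938, minus strand, mean difference −0.42), SLC1A4 (chr2:64989149-64989448, plus strand, 0.34, match on the opposite strand) and, for comparison, ASNS (chr7:97872359-97872658, minus strand, −0.32).
SLC7A1: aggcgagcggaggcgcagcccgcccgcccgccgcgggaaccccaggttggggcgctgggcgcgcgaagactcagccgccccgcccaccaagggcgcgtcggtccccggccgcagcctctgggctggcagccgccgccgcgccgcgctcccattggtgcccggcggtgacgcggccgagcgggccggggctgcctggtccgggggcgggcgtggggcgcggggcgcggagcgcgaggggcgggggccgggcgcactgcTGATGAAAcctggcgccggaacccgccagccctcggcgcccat
SLC1A4: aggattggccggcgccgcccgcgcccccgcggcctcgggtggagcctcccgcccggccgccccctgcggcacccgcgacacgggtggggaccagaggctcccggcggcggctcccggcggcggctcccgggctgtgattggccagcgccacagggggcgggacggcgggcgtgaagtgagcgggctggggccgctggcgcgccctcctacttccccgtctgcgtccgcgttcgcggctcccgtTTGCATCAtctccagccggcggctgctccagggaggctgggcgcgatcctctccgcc
ASNS: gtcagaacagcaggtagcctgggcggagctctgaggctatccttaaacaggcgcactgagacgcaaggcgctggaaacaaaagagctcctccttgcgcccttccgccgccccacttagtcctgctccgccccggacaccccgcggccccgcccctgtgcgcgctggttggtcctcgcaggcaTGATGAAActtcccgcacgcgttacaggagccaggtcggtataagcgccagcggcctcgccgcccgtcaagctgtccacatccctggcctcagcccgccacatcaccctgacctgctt

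The members SLC38A7 (chr16:58684721-58685020, minus strand) and SLC7A5 (chr16:87869458-87869757, minus strand) lay on opposite sides of siCON, at 0.56 and −0.44, and both windows hold the E-box, in capitals.
SLC38A7: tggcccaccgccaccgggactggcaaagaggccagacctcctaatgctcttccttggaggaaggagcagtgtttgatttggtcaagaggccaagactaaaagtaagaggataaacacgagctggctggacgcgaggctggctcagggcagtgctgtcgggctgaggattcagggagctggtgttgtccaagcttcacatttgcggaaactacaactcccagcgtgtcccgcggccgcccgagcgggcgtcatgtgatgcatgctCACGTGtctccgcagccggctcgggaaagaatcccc
SLC7A5: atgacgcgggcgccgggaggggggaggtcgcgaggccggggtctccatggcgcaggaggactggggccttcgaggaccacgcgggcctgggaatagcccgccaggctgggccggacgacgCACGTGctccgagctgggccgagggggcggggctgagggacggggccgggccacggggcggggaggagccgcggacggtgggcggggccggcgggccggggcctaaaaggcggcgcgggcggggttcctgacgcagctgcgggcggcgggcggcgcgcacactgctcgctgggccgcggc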

How the data were processed

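RNA of 16 samples was hybridized to Affymetrix exon arrays (Human Exon 1.0 ST). The authors used RMA in oligo, summarized core probes to genes and deposited log2 values for 22011 clusters. The submitters' notes name hg19, and versions are not given in the sources used here. The values were used as deposited, and 0 columns belonged to no sample. Gene names came from the platform's table, with symbols as that table gives them.

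Knockdowns and siCON, and zinc finger and other knockdowns, were compared with lmFit and eBayes of limma 3.58.1 in R 4.3.3, and p-values were adjusted by Benjamini-Hochberg over the whole table with calls at 0.05. The methods' t-test pools the variance. Single members were also tested by exact permutation. Scripts ran in scipy 1.17.1, pandas 2.3.3, numpy 2.4.6 and matplotlib 3.10.9 under Python 3.11.15 and were tested on simulated data. RMA shrinks differences of dim genes toward background, and the number of arrays limits the precision.

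The members and gene lists were chosen with earlier results of these data known. The naming rule took expressed members by role, with array values for those called, those on one side of both siCON arrays on all knockdowns, the 6 largest mean differences and the largest difference per array. Of dim members it took the 3 largest and those past 1 on an array, and of each list those called and the 2 largest. The marker lists also held EPCAM, an epithelial gene that was dim at 4.27 and was called lower by limma, by 0.78 (adjusted p 0.0421). Its SE was 0.166 though its SD over the knockdown arrays was 0.090, so much of its spread lies between the 2 siCON arrays. The summed epithelial markers were 42.4 and 44.1 on those arrays. Dim members named in counts, the genes named for likeness and ATF4 were named after their values were seen.

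Alternatives were median-centred and quantile-normalized values, brighter clusters only, the mean of a gene's clusters, zinc finger knockdowns only, limma with a trend, the methods' t-test with either adjustment, each siCON array alone as the reference, other lines for expressed members, and each array left out in turn.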

Additional observations from a re-analysis of the deposited data

Results flagged for a closer look

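Among 54 groups of arrays examined (the 10 zinc finger and the 4 other knockdowns for each of the 27 expressed members), 4 held an array that stood apart from the rest of its group, where chance gives about 1 in 20. SLC38A12 was 10.17 on the ZNF708 array, above the other zinc finger arrays at 9.61 to 9.90. SLC6A9 was 9.80 on the RASSF8 array, with the other 3 knockdowns at 8.93 to 9.07. SLC6A3, the dopamine transporter, was 8.79 on the IGFBP2 array, below the others of its group at 9.09 to 9.12. That value was near the siCON levels of 8.90 and 8.85, and the ZNF431 array was lower, at 8.69. SLC38A6 was 7.02 on the IGF2R array, with the others at 8.23 to 8.28. Each is a single array, so none has a replicate check.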

How the results depend on the processing

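The counts of members called by limma between knockdowns and siCON were 0 lower and 0 higher in every alternative run, and 25 of 27 expressed members kept the sign of their mean difference in all 23 settings. The exceptions were SLC38A6 and SLC6A16. SLC38A6 was at −0.23 to 0.017 over the arrays left out in turn, with 0.017 without the siCON array at 24 h. SLC6A16 was at −0.029 with median-centred values, −0.063 with quantile-normalized values and −0.0010 with zinc finger knockdowns only. Over the arrays left out in turn it was at −0.10 to 0.15. The zinc finger comparison called 0 to 15 members over the arrays left out, with 15 without the IGFBP2 array. Added after seeing the data were other settings for the count of members above siCON on all arrays, which was 6 with median-centred values, and correlations without the IGFBP2 and ZNF100 arrays, which turned to −0.165 (SLC3A2 with SLC7A5) and −0.048 (ASNS with SLC7A11). The latter pair was also at −0.065 without the 2 farthest arrays. No paired analysis was possible because the labels give no replicate numbers. The 2 siCON arrays limit every comparison.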
